A study of Mus musculus with 15 samples.

Results

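The comparison described here set macrophages stimulated with disulfide HMGB1 (dsHMGB1) against macrophages stimulated with fully reduced HMGB1 (frHMGB1), and it rests on 6 of the 15 RNA-Seq libraries, 3 per form. Only protein-coding genes were described: 12367 of the 21649 protein-coding genes in the count table passed the filter on low counts, and 5781 had no count in any of the 6 libraries. The cells were bone marrow-derived macrophages (BMDMs), wild-type bone marrow cells of 5 female C57BL/6NTac mice aged 8 to 10 weeks that were pooled and matured with macrophage colony-stimulating factor (M-CSF). Both forms were given at 5 µg/mL for 24 h. Parallel cultures received PBS, LPS (1 µg/mL) or LPS with IFNγ (20 ng/mL; the sources differ on the LPS dose of this group), and their values are printed as reference levels. The libraries of a group came from the same cell pool, so every error and adjusted p below covers the spread between cultures and libraries, not between mice. By the labels, frHMGB1 was produced in-house and dsHMGB1 was a gift from another laboratory. The methods state that the buffers for frHMGB1 held the reducing agent DTT and those for dsHMGB1 did not, and mention a calmodulin-binding tag on recombinant HMGB1 without tying it to a form. The redox form therefore cannot be told apart from the source and preparation of the protein, and the redox state of either protein during the 24 h is not among the values analysed here.

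HMGB1 is a chromatin protein that cells release when they are damaged or activated, and outside the cell its cysteines set which receptor it meets. The disulfide form binds MD-2 (*Ly96*), the co-receptor of TLR4, and acts as an alarmin that drives NF-κB and cytokine genes in macrophages. The fully reduced form pairs with the chemokine CXCL12 and acts on CXCR4 in cell migration, and RAGE (*Ager*) binds HMGB1 as well.

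Total counts were 41909977, 42770651 and 40934540 in the frHMGB1 libraries and 65905281, 79899533 and 69342747 in the dsHMGB1 libraries, so low counts were measured with more precision after dsHMGB1. Values below are counts divided by DESeq2 size factors (normalized counts) as mean ± SD over 3 libraries, log2 fold changes are dsHMGB1 over frHMGB1 with their standard error (SE), and adjusted p-values come from the quasi-likelihood F test of edgeR with Benjamini-Hochberg adjustment over all 15294 genes tested. A gene was called at an adjusted p under 0.05. Among 10112 genes that averaged 100 or more normalized counts, the median SD of log2 normalized counts was 0.0636 between frHMGB1 libraries and 0.137 between dsHMGB1 libraries. The median SD was 0.419 between the PBS libraries, in which replicate 3 stood apart. All 10 macrophage markers were tested, and 6 were called higher and 2 lower. For comparison with all marker counts here, 31.3% of all protein-coding genes tested were called higher and 37.9% lower. Summed, they gave 28200 to 28500 CPM (counts scaled to a common library total) after frHMGB1 and 21700 to 23000 after dsHMGB1, and *Lyz2* held most of these counts. Neutrophil, lymphocyte, erythroid and mast cell markers each summed to under 1 CPM in every library, and *Mpo*, *Ly6g*, *Cd3e*, *Hba-a1* and *Cma1* had no count. Dendritic cell markers summed to 3.44 to 4.45 CPM after frHMGB1 and 3.35 to 4.39 after dsHMGB1, with 2 of 3 tested called higher and 1 lower, and *Flt3* had no count. Osteoclast markers summed to 144 to 151 and 136 to 164 CPM, with 3 of 4 tested called higher and 1 lower. Fibroblast markers summed to 259 to 262 CPM after frHMGB1 and 222 to 278 after dsHMGB1, with 3 of 7 tested markers called higher. Their part in the results was not tested.

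The macrophages differed between the HMGB1 forms in most genes that could be tested. After dsHMGB1, 3873 protein-coding genes were called higher (31.3% of those tested) and 4691 were called lower (37.9%), and 3803 were not called. These shares are the background for each count of called genes in a list below, and they depend on the scaling. With protein-coding genes alone in the fit, 4272 were called higher and 4282 lower. With another normalization (RLE) the counts were 4129 and 4442, so the excess of lower calls is uncertain. Differences beyond 2-fold, tested against that threshold, were found for 1399 higher genes (11.3%) and 1122 lower genes (9.07%). The rises reached further than the falls. By fold change alone, 892 genes lay above a log2 fold change of 2 and 407 below −2, all of them called, and 175 lay above 5 while 7 lay below −5. The median log2 fold change over all tested genes was −0.05, with quartiles at −0.60 and 0.53. The groups did not overlap in any library for 9092 genes (73.5%). A sum over a culture cannot tell fewer cells of a kind from less RNA per cell, and this holds for each value below.

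**Figure D1:**
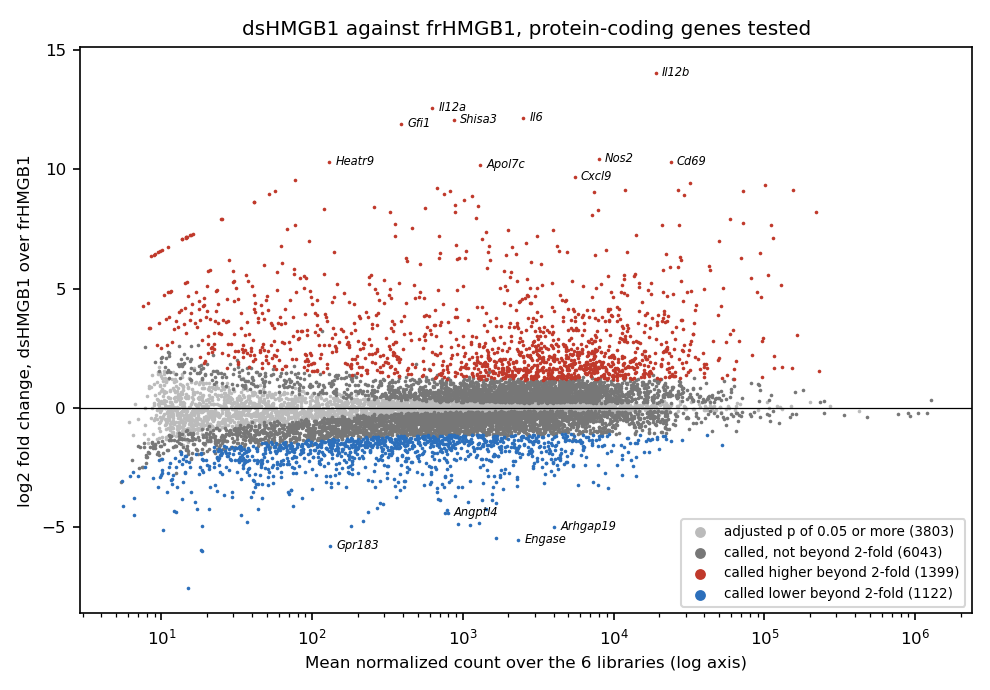
Mean normalized count over the 6 libraries (x axis, log scale) against the log2 fold change of dsHMGB1 over frHMGB1 (y axis), 1 point per protein-coding gene tested. Red points are the 1399 genes called higher beyond 2-fold and blue points the 1122 called lower beyond 2-fold and the red points reach farther from 0 than the blue points.

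Of 13 tested genes for HMGB1, its receptors and partners, 5 were called higher, 6 lower and 2 were not called, with a median log2 fold change of 0.16. These counts lie near the shares over all tested genes (31.3% higher and 37.9% lower), and with all 15 libraries in 1 fit 3 were called higher. *Cxcr4*, the receptor of CXCL12, had 17598, 15798 and 16353 normalized counts in the frHMGB1 libraries and 1719.8, 1458 and 1645 in the dsHMGB1 libraries. The groups were far apart, and the fall was 10.3-fold (log2 fold change -3.37 ± 0.09, adjusted p = 7.2e-10). The PBS mean was 18536 ± 619.8 and the LPS mean 698 ± 56.2, so frHMGB1 lay beside PBS and dsHMGB1 nearer to LPS. *Cxcl12* itself gave 140.4, 153 and 184 after frHMGB1 and 167, 195 and 172 after dsHMGB1, and was not called (adjusted p = 0.549, 95% interval of the log2 fold change -0.21 to 0.52). *Thbd*, encoding thrombomodulin, which binds HMGB1 at the cell surface, fell 13.3-fold, from 681, 665 and 657 to 32.5, 56.2 and 61.5 (adjusted p = 5.9e-08). *Havcr2*, encoding the inhibitory receptor TIM-3, fell 3.14-fold, from 546 ± 35.6 to 174 ± 20.8 (adjusted p = 1.3e-06), and *Cd24a*, whose product dampens the response to HMGB1, fell 1.65-fold, from 551 ± 37 to 335 ± 45.3 (adjusted p = 3.4e-04).

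Transcripts of the TLR4 receptor complex, *Tlr2* and *Tlr9* were called higher after dsHMGB1, by sizes that differed widely and with calls of unequal stability. *Cd14*, which hands ligands to TLR4 and MD-2, gave 11445, 11965 and 10879 normalized counts after frHMGB1 and 88284, 73189.9 and 76798 after dsHMGB1, a rise of 6.95-fold (log2 fold change 2.80 ± 0.10, adjusted p = 2.5e-09). *Tlr2*, a receptor for bacterial lipoproteins, rose 9.82-fold, from 5416, 5263 and 5349 to 54986, 50455 and 52021 (adjusted p = 2.7e-10). In both genes the lowest dsHMGB1 library was several times above the highest frHMGB1 library. *Tlr4* rose less, from 3210.5, 3011 and 3021 to 3699, 5475 and 3942 (log2 fold change 0.51 ± 0.14, adjusted p = 0.0115), and with all 15 libraries in 1 fit it was not called (adjusted p = 0.18). *Ly96*, encoding MD-2, rose 1.8-fold, from 698, 585 and 666 to 1355, 1175 and 987 (adjusted p = 2.4e-04). *Tlr9*, an endosomal DNA receptor, had 1861, 1668 and 1764 after frHMGB1 and 1787, 2777 and 2812 after dsHMGB1, where 1 dsHMGB1 library lay among the frHMGB1 libraries. Its call (adjusted p = 0.0285) was lost when any library but dsHMGB1 replicate 1 was left out (adjusted p from 0.0553 to 0.106).

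*Ager* and *Hmgb1* need care. *Ager* was near the detection limit in both groups, with 29.4, 22.8 and 16 normalized counts after frHMGB1 and 8.61, 8.71 and 3.62 after dsHMGB1 (log2 fold change -1.70 ± 0.60, adjusted p = 0.00703), and it was not called with all 15 libraries in 1 fit (adjusted p = 0.103). *Hmgb1* gave 1197, 1129 and 1222 after frHMGB1 and 530.2, 598 and 509 after dsHMGB1 (log2 fold change -1.11 ± 0.11, adjusted p = 1.9e-06). Its transcripts matched 48 annotated pseudogenes at 95% identity or more over 300 bases or more, so reads of *Hmgb1* may have been split among copies or dropped, and its value is uncertain. *Siglecg*, the partner of CD24, which also has a near-identical pseudogene, was not called (6.81 ± 6.11 against 14.7 ± 9.37, adjusted p = 0.216), and *Trem1* was too low to be tested.

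**Figure D2:**
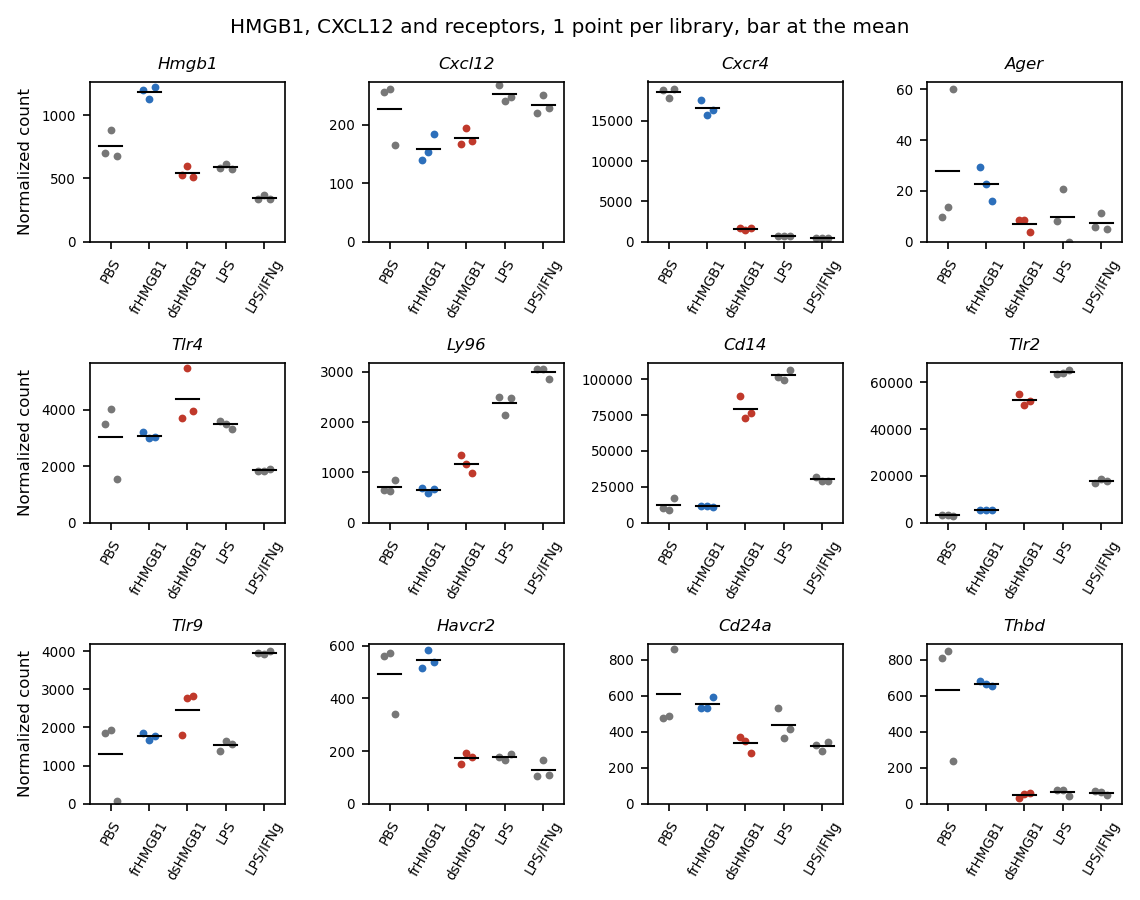
Normalized counts (y axis, from 0, a scale per panel) of *Hmgb1*, *Cxcl12* and 10 receptor or partner genes in PBS, frHMGB1, dsHMGB1, LPS and LPS/IFNγ libraries, 1 point per library with a bar at the mean of 3. For *Cxcr4*, *Thbd* and *Havcr2* the frHMGB1 points (blue) lie above every dsHMGB1 point (red), and for *Cd14* and *Tlr2* below; the third PBS point stands apart in several panels.

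Of 15 TLR adaptors and kinases, 8 were called higher, 4 lower and 3 were not called (median log2 fold change 0.38). The background over all tested genes was 31.3% higher and 37.9% lower. *Myd88*, the adaptor that most TLRs share, rose 4.48-fold, from 3481 ± 22 to 15603 ± 1120.0 (adjusted p = 4.7e-09), and *Irak2*, a kinase recruited by it, rose 4.41-fold, from 3739.6 ± 138 to 16489 ± 37.2 (adjusted p = 2.2e-09). *Irak3*, which restrains the same complex, rose 2.52-fold (adjusted p = 9.1e-07). In contrast, *Tab1*, a partner of the kinase TAK1, fell 2.1-fold, from 1206 ± 101 to 574 ± 53.5 (adjusted p = 5.0e-06), and *Irak4* fell by 0.30 on the log2 scale (adjusted p = 0.00193). *Ticam1*, the adaptor TRIF, was called lower by a small amount (log2 fold change -0.16 ± 0.08, adjusted p = 0.0271), a call lost by DESeq2 (adjusted p = 0.0791), while *Ticam2*, the adaptor that links TLR4 to TRIF, rose by 0.38 ± 0.09 (adjusted p = 0.00386).

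Of 18 genes for NF-κB subunits and their inhibitors, 17 were called higher, none was called lower and *Nfkbid* was not called, with a median log2 fold change of 1.99. The subunits *Nfkb1*, *Nfkb2* and *Rel* rose 8.68-fold, 9.15-fold and 7.13-fold. *Nfkbiz*, encoding the co-activator IκBζ, had 865, 914 and 906 normalized counts after frHMGB1 and 21867, 25542 and 23201 after dsHMGB1 (log2 fold change 4.72 ± 0.09, adjusted p = 2.0e-10). *Nfkbie*, encoding the inhibitor IκBε, rose 18.7-fold, from 1083, 1119 and 987 to 19651, 19664 and 20416 (adjusted p = 2.0e-10). Genes that end the signal rose along with those that carry it: *Nfkbia* rose 10.5-fold and *Tnfaip3*, encoding the ubiquitin-editing enzyme A20, 13.7-fold.

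Among called genes that averaged 100 or more normalized counts, the 10 largest rises were *Il12b*, *Il12a*, *Il6*, *Shisa3*, *Gfi1*, *Nos2*, *Heatr9*, *Cd69*, *Apol7c* and *Cxcl9*. *Il12b*, the p40 subunit shared by IL-12 and IL-23, was nearly absent after frHMGB1, with 6.79, 0 and 0 normalized counts, and reached 34652, 40651 and 38649 after dsHMGB1 (log2 fold change 14.04 ± 1.40, adjusted p = 3.1e-10). A single frHMGB1 library held all 6 of its counts. *Il12a*, the p35 subunit of IL-12, had no count after frHMGB1 and 1274, 1255 and 1219.6 normalized counts after dsHMGB1, which is at least 1115-fold higher against a floor of 3 counts over the group. *Il6* had 3 counts in all after frHMGB1 and 6467, 4611 and 4002 normalized counts after dsHMGB1. Their ratio was 4445 (95% interval 1521 to 21557, counting error only, which does not cover duplicates from PCR). *Nos2*, the inducible nitric oxide synthase, went from 21.5, 13 and 0 to 16067, 15655 and 15955 (log2 fold change 10.43 ± 1.13). *Cd69*, an activation antigen, rose 1253-fold, from 43, 35.9 and 35.5 to 51665, 49896 and 41680.0, and *Cxcl9*, a chemokine for T cells, 805-fold, from 13.6, 25 and 2.29 to 10732, 11235 and 11022. The transcriptional repressor gene *Gfi1* had no count after frHMGB1 and 864, 726 and 730.5 normalized counts after dsHMGB1, at least 687-fold higher, and *Heatr9* was at least 236-fold higher. *Shisa3* had 1 count in all after frHMGB1 and 1793, 1793 and 1621 normalized counts after dsHMGB1, a ratio of 4651 (95% counting interval 834 to 183718). *Apol7c* had 4.53, 0 and 2.29 after frHMGB1 and 2335, 2779.6 and 2698 after dsHMGB1, uncertain because a near-identical pseudogene is annotated.

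The 10 largest falls were *Gpr183*, *Engase*, *Cnr2*, *Arhgap19*, *Frat1*, *Fam214a*, *Bmf*, *Rasgrp3*, *Frat2* and *Angptl4*. *Gpr183*, the receptor for oxysterols that guides immune cell migration, had 281, 249 and 247 normalized counts after frHMGB1 and 3.83, 7.12 and 2.71 after dsHMGB1 (fall of 55.4-fold, adjusted p = 3.8e-08). *Engase*, a cytosolic enzyme that cuts N-glycans, fell 45.9-fold, from 4654, 4355 and 4676 to 108, 101 and 89.5 (adjusted p = 1.8e-10). *Cnr2*, the cannabinoid receptor of immune cells, fell 43.7-fold, from 3387, 3081 and 3249 to 50.7, 96.6 and 73.2 (adjusted p = 2.3e-09). In each of these the lowest frHMGB1 library was more than 30 times the highest dsHMGB1 library. *Arhgap19*, a GTPase-activating protein for RhoA, went from 7835 ± 229 to 247 ± 7.8 (31.7-fold). Both *Frat* genes, which encode inhibitors of GSK3, fell: *Frat1* 30.5-fold and *Frat2* 26.6-fold. *Bmf*, a pro-apoptotic BCL-2 family gene, went from 1793 ± 77.9 to 60.7 ± 8.22, *Rasgrp3*, an activator of Ras proteins, from 2466 ± 19.7 to 86.3 ± 7.41, and *Angptl4*, an inhibitor of lipoprotein lipase, from 1509 ± 128 to 71 ± 11.2. *Fam214a* fell 29.6-fold.

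**Figure D3:**
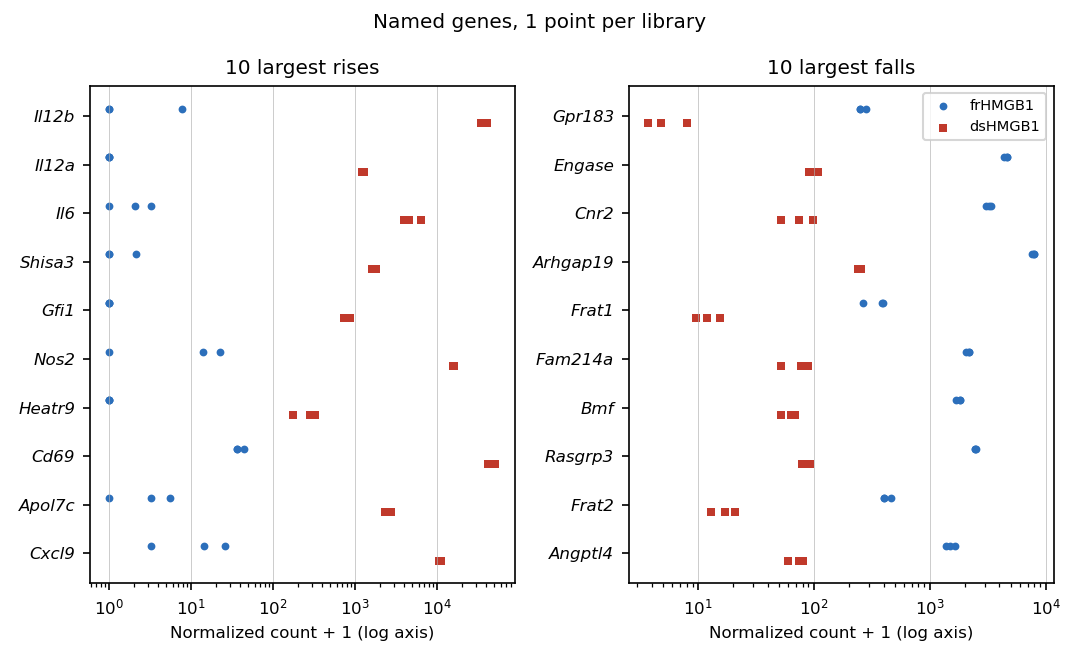
Normalized count plus 1 (x axis, log scale) of the 10 genes with the largest rises (left) and the 10 with the largest falls (right), 1 point per library, blue circles for frHMGB1 and red squares for dsHMGB1. The genes were chosen because the groups do not overlap, and for the rises every frHMGB1 point lies below 100 and every dsHMGB1 point above it.

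The promoters of 4 of the genes that rose are shown because each holds a match to a motif of a factor that TLR4 or interferon signalling activates. They are the 250 bases before the RefSeq start site, read 5′ to 3′ on the strand of the gene, build GRCm38.p6. Capitals mark matches, on either strand, to the NF-κB motif (GGGA, any base, then TTTCC), the interferon-stimulated response element (ISRE; GAAA, any 2 bases, then GAAA) or the AP-1 motif (TGANTCA). *Il6* lies at chr5:30012864-30013113 (plus strand), *Cxcl10* at chr5:92348890-92349139 (minus strand), *Rsad2* at chr12:26456453-26456702 (minus strand) and *Gbp5* at chr3:142496684-142496933 (plus strand).
Il6: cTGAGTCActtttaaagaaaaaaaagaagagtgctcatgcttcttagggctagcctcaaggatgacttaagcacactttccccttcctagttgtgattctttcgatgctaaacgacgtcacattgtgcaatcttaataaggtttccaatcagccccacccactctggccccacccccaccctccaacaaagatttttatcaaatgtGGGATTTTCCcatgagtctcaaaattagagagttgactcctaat
Cxcl10: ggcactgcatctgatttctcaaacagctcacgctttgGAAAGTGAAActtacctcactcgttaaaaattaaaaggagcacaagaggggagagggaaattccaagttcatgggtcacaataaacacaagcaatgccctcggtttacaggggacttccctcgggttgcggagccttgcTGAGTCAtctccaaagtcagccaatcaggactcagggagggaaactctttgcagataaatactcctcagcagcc
Rsad2: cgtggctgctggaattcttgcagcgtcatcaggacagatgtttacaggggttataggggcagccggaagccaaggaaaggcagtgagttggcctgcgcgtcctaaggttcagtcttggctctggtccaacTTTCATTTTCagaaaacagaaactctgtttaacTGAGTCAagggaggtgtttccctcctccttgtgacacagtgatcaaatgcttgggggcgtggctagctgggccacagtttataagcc
Gbp5: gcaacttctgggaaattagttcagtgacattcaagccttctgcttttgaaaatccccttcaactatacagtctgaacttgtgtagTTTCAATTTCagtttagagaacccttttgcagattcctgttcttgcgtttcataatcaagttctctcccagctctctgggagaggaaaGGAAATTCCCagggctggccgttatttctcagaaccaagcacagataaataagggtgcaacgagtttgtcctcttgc
In *Il6* the NF-κB match begins 44 bases before the start, and in *Gbp5* 77 bases before it. The ISRE match begins 213 bases before the start in *Cxcl10*, 120 in *Rsad2* and 165 in *Gbp5*.

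Promoter windows of 300 bases (250 before to 50 after the start) were at hand for 9790 of the 12367 tested genes. The ISRE letters were in the windows of 109 of 1080 genes called higher beyond 2-fold (10.1%), 21 of 872 called lower beyond 2-fold (2.41%) and 4% of all tested genes with a window. They were in 14 of 24 antiviral interferon-stimulated genes and in 10 of 10 genes for guanylate-binding proteins and immunity-related GTPases. The NF-κB letters were rare, at 0.926%, 0.459% and 0.592% of the same 3 sets, and the AP-1 letters were in 10.1%, 7.57% and 6.45%. The E2F letters TTTCCCGC were in 1.3%, 3.9% and 2.4%. A match is a description of the sequence and shows neither a bound site nor a cause.

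Cytokine genes were higher after dsHMGB1 in every tested case. All 22 tested cytokines were called higher, 21 of them beyond 2-fold, with a median log2 fold change of 6.54, or 5.68 with *Il12a* and *Csf2*, which had no count after frHMGB1, at their lower bound. *Tnf* rose 90.5-fold, from 2029.8, 2165 and 1945 to 196758, 177537 and 181401 (adjusted p = 9.5e-11), and *Il1b* 566-fold, from 111, 102 and 71 to 62588, 47147 and 51173 (adjusted p = 2.4e-10). *Ifnb1*, the type I interferon that feeds the antiviral response, was nearly absent after frHMGB1 (mean 1.51 ± 2.61) and reached 615, 464 and 448 after dsHMGB1. Restraining cytokines were among those that rose: *Il10* went from 21 ± 5.04 to 188 ± 42.7 and *Il1rn*, the antagonist of IL-1, from 1042 ± 244 to 17406 ± 2378. The smallest rise was that of *Tgfb1* (log2 fold change 0.53 ± 0.08, adjusted p = 1.8e-04). *Il19*, *Il33* and *Csf3* were too low to be tested.

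All 12 CC chemokines and 8 of 9 tested CXC chemokines were called higher (medians 5.22 and 7.46). *Ccl12*, which attracts monocytes, had 4.53, 2.17 and 3.44 after frHMGB1 and 1291, 1028 and 1049.6 after dsHMGB1, and *Ccl22*, which attracts regulatory T cells, 13.6, 8.69 and 6.87 and 2672, 2247 and 2325. *Cxcl10*, an interferon-induced chemokine whose promoter is printed above, rose 643-fold, from 386, 351 and 205 to 226025, 186619 and 193041 (adjusted p = 7.6e-10). *Cxcl14* was the exception, with 764, 736 and 645 after frHMGB1 and 516, 418 and 450.2 after dsHMGB1 (log2 fold change -0.63 ± 0.13, adjusted p = 3.8e-04). Of 13 receptors for chemoattractants, 6 were called higher, 4 lower and 3 were not called, against 31.3% higher and 37.9% lower over all tested genes. The formyl peptide receptors rose most, *Fpr1* from 15.8 ± 6.25 to 1021 ± 37.2 and *Fpr2*, which has a near-identical pseudogene, from 17.1 ± 9.26 to 2839 ± 565. *Cx3cr1*, the fractalkine receptor, fell 6.81-fold, from 334, 359 and 264 to 35.4, 41.9 and 63.3 (adjusted p = 2.1e-06), and *C5ar2*, a receptor for C5a, 6.15-fold (adjusted p = 1.9e-06). *Ccr2*, the monocyte receptor for CCL2, fell 2.86-fold, from 156 ± 37.5 to 54.5 ± 15.5 (adjusted p = 4.1e-04).

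Interferon-stimulated genes were higher after dsHMGB1 in every tested case. All 31 antiviral genes tested and all 16 genes for guanylate-binding proteins and immunity-related GTPases were called higher beyond 2-fold, with medians of 5.04 and 6.03. *Rsad2*, encoding viperin, rose 293-fold, from 1649, 1589 and 1241 to 426174, 473257 and 412739 (adjusted p = 1.6e-10). *Oasl1*, which limits translation of *Irf7*, rose 274-fold, from 54.3, 73.9 and 27.5 to 14611, 13837 and 14310.4. *Irf7* itself rose 37.2-fold. *Gbp5*, which takes part in inflammasome assembly and host defence, rose 549-fold, from 293, 237 and 252 to 125364, 155244 and 148618 (adjusted p = 1.1e-10), and *Iigp1*, a GTPase that attacks the vacuoles of parasites, 147-fold, from 41.9 ± 4.39 to 6142 ± 717. *Ifit3* and *Ifit3b*, *Oas1a* and *Oas1g*, and *Tgtp1* and *Tgtp2* are near-identical pairs, and counts within a pair are uncertain.

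Genes for antigen presentation and costimulation were nearly all higher after dsHMGB1. Of 15 genes, 14 were called higher and *Pdcd1lg2* was not called (median 1.03). The class II genes *H2-Aa*, *H2-Ab1* and *H2-Eb1* rose by 0.50, 0.68 and 0.57 on the log2 scale. *Cd40*, the receptor for the T cell ligand CD40L, rose 478-fold, from 136, 149 and 79 to 64956, 53267 and 56048 (adjusted p = 5.0e-10), and the adhesion gene *Icam1* 47.4-fold, from 4382 ± 189.6 to 207782 ± 6426. *Cd274*, encoding the inhibitory ligand PD-L1, rose 14.7-fold.

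Of 9 genes for nitric oxide, arginine and itaconate, 7 were called higher, *Asl* was called lower and *Arg1* was not called (median 3.26). *Acod1*, the enzyme that makes itaconate, had 679, 580.3 and 384 after frHMGB1 and 301465, 316791 and 311915 after dsHMGB1 (log2 fold change 9.14 ± 0.16, adjusted p = 4.6e-10). *Slc7a2*, an arginine transporter, rose 17.7-fold and *Gch1*, which makes the cofactor of nitric oxide synthase, 9.55-fold. *Asl*, argininosuccinate lyase, fell from 3228 ± 177 to 2424 ± 286 (adjusted p = 0.00174). *Arg1* stayed low, at 14.2 ± 2.55 and 7.92 ± 5.49 (adjusted p = 0.194). Of 12 prostaglandin and leukotriene genes, 5 were called higher, 5 lower and 2 were not called, near the shares over all tested genes. *Ptgs2*, the inducible cyclooxygenase, rose 689.9-fold, from 96.2, 116 and 66.4 to 58546, 75206 and 59052, while *Ptgs1*, the constitutive form, fell 2.21-fold, from 675, 625 and 650.3 to 292, 316 and 275 (adjusted p = 3.3e-06). *Ptges*, the synthase of prostaglandin E, rose 9.29-fold and *Hpgds*, the synthase of prostaglandin D, fell 2.7-fold.

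Of 14 genes for inflammasomes and pyroptosis, 9 were called higher, 3 lower and 2 were not called (median 1.11). Among all tested genes 31.3% were called higher and 37.9% lower. The sensor *Nlrp3* rose 59.1-fold, from 850.2, 809 and 698 to 44033, 47707 and 47679 (adjusted p = 1.6e-10), and *Casp4*, which senses cytosolic LPS, 9.29-fold, from 1508 ± 83.1 to 14011 ± 636. Other sensors fell: *Nlrp1b* 6.7-fold, from 387, 299 and 359.5 to 55.5, 57 and 43.4 (adjusted p = 3.2e-07), and *Nlrc4* by 0.54 on the log2 scale (adjusted p = 0.00191). *Pycard*, the adaptor ASC, was not called (log2 fold change -0.21 ± 0.12, adjusted p = 0.0542), but was called lower without dsHMGB1 replicate 1 (adjusted p = 0.00287). It was also called lower without the filter on low counts (adjusted p = 0.0293) and with the 12 libraries other than PBS in 1 fit (adjusted p = 0.0126). Feedback inhibitors were called higher in 14 of 18 cases (median 1.52), led by *Socs3* with 205, 238 and 113 and 30609, 25682 and 27221 and *Cish* with 12.5, 4.35 and 11.4 and 1691, 1192 and 1225, which both restrain cytokine receptors. *Zfp36l1* and *Zfp36l2*, encoding proteins that destabilise mRNA, fell 6.67-fold and 4.18-fold, whereas their relative *Zfp36* rose 2.79-fold.

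Of 27 transcription factor genes of the macrophage lineage, 13 were called higher, 8 lower and 6 were not called (median 0.38). This compares with 31.3% higher and 37.9% lower over all tested genes. *Cebpa*, a myeloid lineage factor, fell 6.97-fold, from 20137, 19154 and 19839.5 to 2856, 2669.6 and 2963 (adjusted p = 6.4e-10). *Cebpd*, the close relative of *Cebpa*, rose 17.8-fold and *Maf*, another factor of macrophages, 2.4-fold. The interferon-linked factors *Batf2* and *Irf1* rose 25.9-fold and 19.5-fold, *Irf1* from 5034 ± 182 to 98229 ± 8232.

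**Figure D4:**
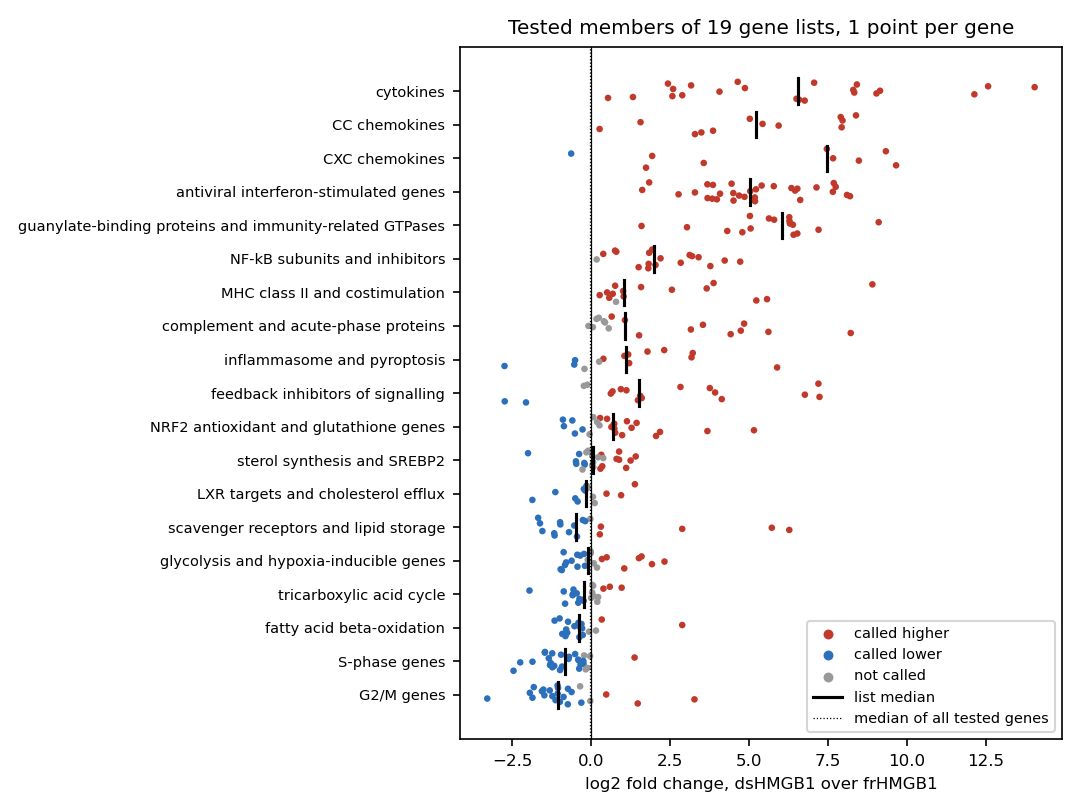
Log2 fold changes of dsHMGB1 over frHMGB1 (x axis) for the tested members of 19 gene lists (y axis), 1 point per gene, red where called higher, blue where called lower and grey where not called. Black bars are list medians and the dotted line is the median of all tested genes, −0.05; the bars of cytokines, chemokines and interferon-stimulated genes lie between 5.04 and 7.46, and those of S-phase and G2/M genes at −0.82 and −1.06.

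Gene groups for energy and lipid metabolism are to be read beside the 31.3% of all tested genes that were called higher and the 37.9% called lower. Of 23 genes for glycolysis and the hypoxia response, 7 were called higher, 11 lower and 5 were not called (median −0.11). Genes of early steps were among those that rose: *Hk2*, hexokinase, 2.85-fold, *Pfkp*, a phosphofructokinase, 3.79-fold and *Pfkfb3*, which makes its activator, 4.99-fold, from 1928 ± 96.1 to 9628 ± 698 (adjusted p = 5.0e-09). Other early steps did not rise: *Gpi1*, which has a near-identical pseudogene, was called lower, and *Pfkl* and *Aldoa* were not called. Among later enzymes, *Tpi1* fell 1.96-fold, and *Pkm* fell by 0.43 on the log2 scale. *Tpi1*, *Pkm*, *Pgk1*, *Eno1* and *Ldha* have near-identical copies, and without such genes the list had 4 called lower and a median of 0.18. *Vegfa*, a target of HIF-1, fell 1.9-fold, and *Hif1a*, which encodes a subunit of that factor, rose 3.02-fold.

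The list for the tricarboxylic acid cycle also held cytosolic enzymes such as *Idh1*, so its counts are not of the mitochondrial cycle alone. Of its 21 genes, 3 were called higher, 11 lower and 7 were not called (median −0.24). By DESeq2 5 were called higher, and with all 15 libraries in 1 fit 7 were called lower. *Idh1*, the cytosolic isocitrate dehydrogenase, fell 3.87-fold, from 18671, 16723 and 18725 to 4631, 4728 and 4616 (adjusted p = 5.0e-09), and the mitochondrial *Idh2* 1.83-fold. *Cs*, citrate synthase, rose from 9103 ± 352 to 13703 ± 155 (adjusted p = 3.6e-05). In fatty acid β-oxidation, 14 of 18 genes were called lower, 2 higher and 2 were not called (median −0.39). *Acadm*, the medium-chain dehydrogenase, fell 2.23-fold, from 3404, 3412 and 3470.3 to 1575, 1452 and 1581 (adjusted p = 2.1e-07), and *Acaa2* 2-fold. *Acsl1*, which activates fatty acids for several fates, rose 7.37-fold, from 2729.6 ± 116 to 20118 ± 1658 (adjusted p = 1.6e-09). *Acadl* was called higher (adjusted p = 0.0163), but not without frHMGB1 replicate 1 or 2 (adjusted p = 0.0596 and 0.0622).

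Lipid handling bears on foam cells, macrophages that store lipid, which the study also examined. Of 18 scavenger receptor and lipid storage genes, 12 were called lower, 5 higher and *Cd36* was not called (median −0.49). *Plin2*, the coat protein of lipid droplets, fell 2.92-fold, from 77923, 77385 and 79328 to 28924, 24142 and 27352 (adjusted p = 4.5e-08), *Fabp4*, a fatty acid carrier, 3.07-fold, from 17616, 17719.6 and 17776 to 6731, 4892 and 5659 (adjusted p = 3.8e-07), and *Soat1*, which makes cholesteryl esters, 2.23-fold. The receptors for modified lipoproteins *Msr1* and *Olr1* rose 7.37-fold and 77.2-fold, *Olr1* from 24.9, 31.5 and 14.9 to 1744, 1964 and 1825. *Marco*, another scavenger receptor, rose to 3507, 3718 and 3750.1 after dsHMGB1, and its frHMGB1 libraries spread from 29.8 to 123. *Cd36* had 32994, 34318 and 35814 and 31675, 36902 and 32731 (95% interval of the log2 fold change -0.20 to 0.15).

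Of 13 targets of LXR, the nuclear receptor for oxysterols, and cholesterol efflux genes, 3 were called higher, 7 lower and 3 were not called (median −0.15), or 4 lower with protein-coding genes alone or without dsHMGB1 replicate 3 and 3 lower with all 15 libraries. *Abca1*, the main exporter of cholesterol, rose 2.61-fold, from 10547, 9341 and 10470.5 to 17381, 34436 and 27365 (adjusted p = 1.8e-04), and *Nr1h3*, encoding LXRα, 1.93-fold. *Abcg1*, the partner exporter, was called lower by a small amount (log2 fold change -0.15 ± 0.08, adjusted p = 0.0231), a call lost by DESeq2 (adjusted p = 0.071). *Mylip*, a ubiquitin ligase, fell 2.2-fold and *Scd2*, a fatty acid desaturase, 3.63-fold, from 4394 ± 218 to 1208 ± 112. Of 24 sterol synthesis and SREBP2 genes, 9 were called higher, 6 lower and 9 were not called (median 0.06), or 2 lower with all 15 libraries. *Dhcr7*, the last step to cholesterol, fell 4-fold, from 2916, 2664 and 2578 to 743, 643 and 656 (adjusted p = 2.3e-08), and *Lss* 1.4-fold.

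Of 14 tested genes of alternative activation, 7 were called higher, 5 lower and 2 were not called (median 0.42). The share called lower lies near that over all tested genes (31.3% higher and 37.9% lower). *Pparg*, the nuclear receptor that promotes this state, fell 5.7-fold, from 5007, 4849 and 5002 to 875, 825 and 909 (adjusted p = 1.4e-09), and *Gas6*, a bridge to apoptotic cells, 2.38-fold. *Tgm2*, a transglutaminase, rose 6.92-fold, from 2975 ± 329 to 20591 ± 699. *Mrc1*, the mannose receptor, had 6353, 5619 and 5555 and 6279, 7645 and 7148 and was not called (log2 fold change 0.27 ± 0.10, adjusted p = 0.0524), although DESeq2 called it higher (adjusted p = 0.0163), and *Retnla*, *Chil3* and *Mgl2* were too low to be tested in these cells.

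Cell cycle genes were lower after dsHMGB1, with a few marked exceptions. Of 28 S-phase genes, 23 were called lower, *Mcm10* was called higher and 4 were not called (median −0.82). Of 24 G2/M genes, 19 were called lower, 3 higher and 2 were not called (median −1.06). *Kif23*, a motor for cytokinesis, fell 9.78-fold, from 725, 696 and 801 to 63.2, 65.7 and 98.5 (adjusted p = 6.3e-08), and *Cdc20*, an activator of the anaphase-promoting complex, 3.84-fold, from 186 ± 15.9 to 48.4 ± 8.88. *Mcm7*, a helicase subunit with 1 near-identical pseudogene, fell 3.63-fold. In contrast *Mki67*, the gene of the proliferation antigen Ki-67, rose 9.64-fold, from 965, 899 and 925 to 6996, 10385 and 9501 (adjusted p = 2.1e-08), *Tpx2*, a spindle protein, 2.78-fold, from 483 ± 30.1 to 1341 ± 96.2, and *Mcm10*, a replication factor, 2.59-fold, from 117 ± 21.6 to 303 ± 22.4.

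Of 24 NRF2 and glutathione genes, 15 were called higher, 5 lower and 4 were not called (median 0.68), or 3 lower with all 15 libraries. *Slc7a11*, the cystine importer, rose 35.6-fold, from 652, 641 and 578 to 19227, 27151 and 20172 (adjusted p = 1.5e-09), and *Sod2*, the mitochondrial superoxide dismutase, 12.8-fold, from 4079 ± 119 to 52264 ± 5306. *Gpx1* and *Osgin1* fell 1.86-fold and 1.82-fold, and *Hmox1*, heme oxygenase, was not called (14739 ± 282 and 16818 ± 1111, adjusted p = 0.093; 0.0266 by DESeq2). Of 12 genes for iron and metals, 7 were called higher, 4 lower and *Slc11a1* was not called (median 0.66), or 2 lower with all 15 libraries. Both lists are to be read beside 31.3% higher and 37.9% lower over all tested genes. *Slc40a1*, the iron exporter ferroportin, fell 5.39-fold, from 5000.3, 4675 and 5160.2 to 759.9, 1056 and 932 (adjusted p = 3.8e-08). *Lcn2*, which binds bacterial siderophores, had 15.8, 7.61 and 3.44 and 209.6, 170.2 and 242, and *Cp*, ceruloplasmin, rose 12.5-fold. *Ftl1*, the ferritin light chain, has near-identical copies, and its fall (log2 fold change -0.62 ± 0.11) was not called with all 15 libraries in 1 fit (adjusted p = 0.105).

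Of 17 complement and acute-phase genes, 10 were called higher and 7 were not called (median 1.07, or 2.34 without genes that have near-identical copies). *Serpina3f*, a serine protease inhibitor, had 9.06, 6.52 and 2.29 after frHMGB1 and 1911, 1694 and 1724 after dsHMGB1 (log2 fold change 8.22 ± 0.38), and *C3* rose 28.7-fold. *Saa3*, an acute-phase protein, varied widely within frHMGB1, with 1126, 490.1 and 52.7, and had 34446, 22109.9 and 25000.0 after dsHMGB1. Every dsHMGB1 library lay above every frHMGB1 library, and the log2 fold change was 5.61 ± 1.03 (adjusted p = 8.0e-05). Of 19 matrix protease and plasminogen genes, 14 were called higher, 4 lower and *Mmp12* was not called (median 1.65). *Adamts4*, an aggrecanase, and *Mmp13*, a collagenase, rose 74-fold and 46.1-fold, *Mmp13* from 637, 606 and 501 to 28986, 25909 and 25539.8. *Mmp19* and *Mmp27* fell 1.9-fold and 1.58-fold.

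A further list held the genes that were also measured by quantitative PCR. Of its 14 genes 9 could be tested here, with 7 called higher and 2 lower (median 1.38). These genes were chosen on these samples, so their directions are not independent evidence. Beside *Il12b*, *Cxcl9*, *Cnr2*, *Abca1* and *Nr1h3*, *Rasgrf1* had 2 counts in all after frHMGB1 and 14.4, 25.3 and 27.1 normalized counts after dsHMGB1, a ratio of 30.2 (95% counting interval 8.08 to 254; adjusted p = 4.7e-04). *Pf4*, a platelet chemokine also made by macrophages, rose 3.33-fold, from 155 ± 26.5 to 516 ± 51.4, and *Lpl*, lipoprotein lipase, by 0.31 ± 0.08 on the log2 scale (adjusted p = 0.00824; 0.11 with all 15 libraries in 1 fit). *Lrrc17* had 28.3, 37 and 44.7 after frHMGB1 and 0, 1.58 and 0 after dsHMGB1, from 2 counts in all in the latter group. *Ikzf4*, *Hamp*, *Ccr7*, *Il33* and *Madcam1* were too low in the 6 libraries to be tested.

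For 461 genes the 95% interval of the log2 fold change lay within −0.25 and 0.25, and for 6762 (54.7%) within −1 and 1. The 5 of the former with the most counts were *Csf1r*, *Selenop*, *Eef2*, *Mmp12* and *Anpep*. *Csf1r*, the receptor for M-CSF, had 152111, 142636 and 143288 after frHMGB1 and 146392, 157182 and 160371 after dsHMGB1, with an interval of -0.06 to 0.23. *Mmp12*, the macrophage elastase, had an interval of -0.05 to 0.24, *Selenop*, a selenium carrier, -0.19 to 0.15, and *Eef2*, a translation elongation factor with a near-identical pseudogene, -0.09 to 0.17. *Anpep*, an aminopeptidase, was called lower by a small amount (log2 fold change -0.11 ± 0.07, adjusted p = 0.0334), a call lost by DESeq2 (adjusted p = 0.123).

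The difference between the forms ran along the difference between LPS and PBS, which uses no library of this comparison. Across the 12367 genes the 2 sets of log2 fold changes had a Pearson r of 0.9 and a Spearman rho of 0.872, and 0.899 and 0.864 without PBS replicate 3. The slope of the dsHMGB1 over frHMGB1 change on the LPS over PBS change was 0.682. Against LPS/IFNγ over PBS, r was 0.855, rho 0.815 and the slope 0.631. Genes are not independent replicates, and the LPS and PBS cells came from the same pool.

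Of the 1399 genes higher beyond 2-fold after dsHMGB1, 1337 had a log2 fold change of LPS over PBS above 1 (1333 without PBS replicate 3), 33 lay between −1 and 1, and 29 lay below −1. The LPS mean exceeded the dsHMGB1 mean for 1135 of them. Of the 1122 lower genes, 1044 were below −1 in LPS over PBS (1042 without PBS replicate 3), 78 lay between and none was above 1 (2 without PBS replicate 3). For 247 of these lower genes the LPS mean exceeded the dsHMGB1 mean. The PBS mean lay within 2-fold of the frHMGB1 mean for 1299 of the higher and 1110 of the lower genes (1296 and 1108 without PBS replicate 3). The same shares over all tested genes were not counted, so these counts describe the called genes alone. *Il6*, for example, reached 54396 ± 2248 normalized counts after LPS against 5027 ± 1284 after dsHMGB1, and *Il1b* 473038 ± 12869 against 53636 ± 8009.9. A few named genes had a higher mean after dsHMGB1 than after LPS, as *Marco* (3658 ± 132 against 457 ± 63.8) and *Abca1* (26394 ± 8569 against 13225 ± 1585), values set side by side without a test.

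**Figure D5:**
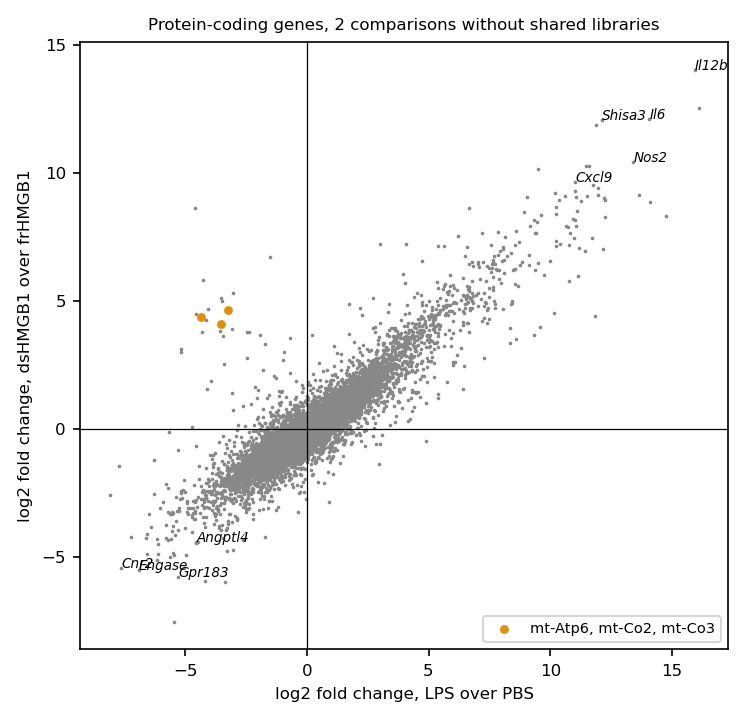
Log2 fold change of LPS over PBS (x axis) against that of dsHMGB1 over frHMGB1 (y axis) for 12367 protein-coding genes, 1 point per gene. Most points lie along a rising band (Pearson r 0.9); a small group at the upper left, with 3 mitochondrial genes in orange, is higher after dsHMGB1 and lower after LPS.

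Some genes differed in opposite directions in the 2 comparisons and were named after their values were seen. Of the 29 genes higher after dsHMGB1 and below −1 in LPS over PBS, 9 averaged 100 or more normalized counts: *mt-Atp6*, *mt-Co2*, *mt-Co3*, *Ftl1-ps1*, *Aldoart1*, *Gm9774*, *Rps27rt*, *Gm9844* and *Gm11273*. By the alignment of transcripts, 6 of these 9 have a near-identical copy in the annotation. *mt-Co2*, a mitochondrial gene for a cytochrome c oxidase subunit, had 87.2, 97.8 and 105 after frHMGB1, 2596, 1383 and 1087 after dsHMGB1, 138, 166 and 127 after LPS, 1408, 1728 and 1705 after LPS/IFNγ and 1243, 1128 and 2699 after PBS. It was thus low in the frHMGB1 and LPS libraries and high in the other three groups. *mt-Atp6* (24.9, 27.2 and 61.8 against 1176, 746 and 460.2) and *mt-Co3* (31.7, 40.2 and 46.9 against 1437, 947 and 574) were likewise low after frHMGB1 and after LPS alone. Their neighbour *mt-Co1* did not share this pattern, with 175259, 183713 and 193329.9 after frHMGB1 and 230556, 247658 and 170993 after dsHMGB1, and was not called, except without dsHMGB1 replicate 3 (adjusted p = 0.00403). Of 13 mitochondrial genes tested, the 6 genes *mt-Atp6*, *mt-Atp8*, *mt-Co2*, *mt-Co3*, *mt-Nd3* and *mt-Nd4l* were called higher and 7 were not called.

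Processed pseudogenes, which lie outside the protein-coding genes described here, took 0.54% to 0.56% of counts in the frHMGB1 libraries and 0.712% to 0.833% in the dsHMGB1 libraries, 0.481% to 0.487% in LPS, 0.684% to 0.709% in LPS/IFNγ and 0.805% to 1.49% in PBS. The frHMGB1 and LPS libraries thus held the lowest shares. How reads with several matches were treated in each group is not given in the sources used here, and its part in these values was not tested. Among protein-coding genes, 946 had a near-identical copy in the annotation, and 33.3% of them were called higher and 34.5% lower, against 31.2% and 38.2% of the 11421 without one. Beyond 2-fold the split was less even: 106 higher and 45 lower with a copy, against 1293 and 1077 without one.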

How the data were processed

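Total RNA of the BMDM cultures was made into stranded mRNA libraries and sequenced in pairs. The deposited values are raw read counts per gene, which the authors obtained after base calling with CASAVA and alignment to GRCm38 with STAR; the sources used here do not give the counting program, its strand setting, the annotation or the treatment of reads with several matches. Gene names and types came from GENCODE M21 (51661 of 51763 identifiers). No column lacked a sample.

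The 6 libraries were tested in edgeR (version 4.0.16, with R 4.3.3 and limma 3.58.1) by its quasi-likelihood F test after TMM scaling and filterByExpr (minimum count 10, total 15), with Benjamini-Hochberg adjustment over 15294 genes of all types, and with glmTreat for differences beyond 2-fold. Fold changes, SEs and normalized counts came from DESeq2 1.42.0, unshrunken. Near-identical copies were sought by aligning transcripts (at least 300 bases at 95% identity). The steps were tested on simulated counts in which few genes were changed, equally in both directions. Most genes were called in the real data, so that simulation does not check the scaling between groups. Intervals from counts cover counting error only.

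The libraries of a group share a cell pool and were technical replicates by the study's account. The p-values measure only the spread between these samples, and the study did not use its own. Same replicate numbers did not pair the samples.

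The comparison and the gene lists were chosen with earlier results of these data known. Named genes were the 10 largest rises and falls among called genes that averaged 100 or more and did not overlap, the 2 largest in each direction of each list by the same minimum, the receptor list, the genes of the study's quantitative PCR and the 5 most counted genes with an interval within 0.25 of 0. Further list members and the mitochondrial genes were named after their values were seen. Some genes that the rule names are not reported here. *Cxcl11*, *Mx2*, *Gbp11*, *Clec7a* and *Jun* were not analysed here. Alternatives were another normalization, test, filter and set of libraries, a replicate block, thinning to equal total counts and leaving out each library.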

Additional observations from a re-analysis of the deposited data

Results flagged for a closer look

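Processed pseudogenes were measured in the same table but lie outside the protein-coding comparison. By edgeR's quasi-likelihood test with Benjamini-Hochberg adjustment, 1106 of the 1593 tested were called higher in dsHMGB1 than in frHMGB1 and 91 lower, with a median log2 fold change of 1.77 against −0.05 for protein-coding genes. For comparison, 45 of 280 lincRNA genes were called higher and 135 lower, and 69 of 335 antisense genes were called higher and 121 lower.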

How the results depend on the processing

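Over all protein-coding genes, the counts called higher or lower, and those called beyond 2-fold, stayed within 1.5 times their values under every alternative run. Without the filter on low counts, 1453 genes lay above a log2 fold change of 2 (892 with it) and 1025 below −2 (407 with it), among 15868 genes in place of 12367. Leaving out each library in turn gave 3576 to 4245 genes called higher, 4198 to 4911 called lower, 1358 to 1495 higher and 994 to 1115 lower beyond 2-fold, 872 to 958 above and 423 to 458 below a log2 fold change of 2 and −2, and a correlation with LPS over PBS of 0.894 to 0.903. Higher genes were 45.2% of calls, 48.2% with RLE normalization and 49.9% with protein-coding genes alone. The replicate numbers did not pair the samples (correlations of deviations −0.132, −0.19 and −0.0304), and with a replicate block 3681 genes were called higher, 4488 lower, and 1369 and 1051 beyond 2-fold. Of 192 tested genes followed singly, 16 changed their call under some alternative and none reversed. Those that lost a call were *Acadl*, *Ftl1*, *Tlr4*, *Tlr9*, *Ager*, *Lpl*, *Anpep*, *Abcg1*, *Eno1*, *Pgk1* and *Ticam1*, and those that gained one were *Hmox1*, *Ldha*, *Mrc1*, *Pycard* and *mt-Co1*. Over these alternatives the adjusted p of *Tlr9* ranged up to 0.625 with all 15 libraries in 1 fit. The changes of call given above for DESeq2 were not particular to that test. In edgeR with RLE normalization, *Abcg1*, *Ticam1* and *Anpep* also lost their calls (adjusted p = 0.0751, 0.0795 and 0.127). *Mrc1* and *Hmox1* also gained one there (adjusted p = 0.0242 and 0.0353). Of the counts and medians of the gene lists, 58 moved and 1334 did not. With all 15 libraries in 1 fit, genes called lower went from 11 to 7 in the tricarboxylic acid cycle list, from 7 to 3 among LXR targets and from 6 to 2 in sterol synthesis, and HMGB1 receptor genes called higher from 5 to 3. An alternative added after seeing the data left genes with near-identical copies and mitochondrial genes out of the main results, without a new fit. It kept 11416 genes. Glycolysis genes called lower went from 11 to 4 only because the rest were left out. The cause of the other changes was not tested. The frHMGB1 libraries held fewer counts than the dsHMGB1 libraries, which limits folds of genes near 0 after frHMGB1.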
